A study of Mus musculus with 30 samples.

Results

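The mouse genes named Zfp and a number encode zinc finger proteins. The set described here holds the protein-coding Zfp genes whose mean level over all 30 libraries was at least 5 CPM, the count divided by the library total and scaled to 1000000, leaving out Zfp36, Zfp36l1 and Zfp36l2, which encode RNA-binding proteins with another kind of finger. The rule took 186 of the 391 protein-coding Zfp genes in the count table. The table had 54532 genes in all, of which 9592 protein-coding genes reached the same level. The members were thus chosen by their mean level, and no comparison between groups entered the rule. A gene that is high in some groups only can still pass through those groups, so the rule is not neutral to comparisons between groups. Just inside the threshold lay Zfp27 and Zfp606 at 5.11 CPM and Zfp51 at 5.04 CPM, and just outside it lay Zfp189 at 5.00 CPM, Zfp874b at 4.99 CPM and Zfp799 at 4.93 CPM. Of the 205 genes under the threshold, 9 had no count in any library.

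The libraries were bulk mRNA sequencing of microglia, the resident immune cells of the brain, from mice labelled C57/B6, named C57BL/6 in the study's methods. HMGB1, a nuclear protein that acts as an alarm signal when it leaves damaged cells, was added for 4 h, and Control cells received none. In Protocols 1A, 1B and 1C, brain cells of pups aged 0 to 3 days, 5 pups to a culture, grew as mixed cultures from which microglia were shaken off. Protocol 1A used 10 days with 0.5 ng/ml GM-CSF, a myeloid growth factor, Protocol 1B used 10 days without GM-CSF, and Protocol 1C used 21 days with 0.5 ng/ml GM-CSF. In Protocol 2, adherent cells from 3 pooled brains of mice aged 6 to 8 weeks were kept for 7 days, with GM-CSF and the macrophage growth factor M-CSF at 100 ng/ml each. In Protocol 3, CD11b-positive cells of mice aged 6 to 8 weeks were taken with magnetic beads and treated at once, with no culture. The methods describe an HMGB1 dose for Protocol 3 only. Each protocol had 3 HMGB1 libraries and 3 Control libraries, 10 groups in all. The neonatal replicates came from distinct litters, and the adult replicates are described as distinct mice, with 3 brains pooled for each Protocol 2 flask. Between Protocol 1 and either adult protocol, age changes together with the way the cells were isolated and kept, and growth factors change too except between Protocols 1B and 3, which had neither. Protocols 2 and 3 share the age of the mice but differ in isolation, culture and growth factors together. The parts of the factors that change together cannot be told apart.

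Most Zfp proteins carry C2H2 fingers, small loops in which a pair of cysteines and a pair of histidines hold a zinc ion and which read DNA a few bases at a time. Many of them also carry a KRAB box, a short stretch that recruits the corepressor Trim28, which in turn brings the histone methyltransferase Setdb1 to the bound site, and this family is known for the silencing of transposons and of imprinted genes. Members without a KRAB box include activators and repressors of many kinds, and some act on RNA, ribosomes or the mitotic spindle instead of DNA.

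In the annotated coding sequences, 81 of the 186 members had a KRAB match, 104 had none and 1 had no complete coding sequence. A match needs a minimum of residues identical, without gaps, to a consensus KRAB sequence. A KRAB box that differs more from the consensus is missed, so members without a match may still carry a KRAB box. KRAB members and other members below are thus classes by this match, and may not be true classes of protein. The 81 KRAB members held a median of 12 fingers, between 2 and 30, and the 104 without a match a median of 7, with a maximum of 37. The member with no complete coding sequence, Zfp993, has an unknown KRAB state and is counted below among the 105 other members. In 4 members no finger was found by the pattern used, among them Zfp703. The mean level had a median of 10.1 CPM over the KRAB members and 22.3 CPM over the 104 without a match, and 17 members reached 50 CPM, 2 of them with a KRAB match. These CPM values are not per length, so they order no gene against another. Of the 186 members, 183 had a mean of at least 1 CPM in each of the 10 groups, 108 had at least 5 CPM in each, and all 186 passed the filter on low counts in all 13 comparisons. The genes lay close together: 90 members, 63 of them KRAB members, stood in 17 runs of at least 3 with less than 1 Mb between neighbours, and chromosome 7 held 44 members.

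Library totals were between 14151983 and 28564757 counts with a median of 21640054.5, and levels by library below are CPM after scaling by edgeR's trimmed mean of M values (TMM). The TMM factors were 0.73 to 0.91 in the HMGB1 libraries and 1.14 to 1.25 in the Control libraries of Protocols 1A, 1B and 1C, so the choice of scaling bears on the counts given for these protocols. Microglial marker genes summed to 2166 to 2480 CPM in Protocol 1A Control libraries and 5616 to 5791 CPM in Protocol 3 Control libraries. Csf1r was the largest part of both sums, with means of 1095 and 2252 CPM. The mature markers Tmem119 and P2ry12 averaged 1.24 and 8.72 CPM in Protocol 1A Control cells, against 60.0 and 189 CPM in Protocol 3 Control cells. Of the listed microglial markers only Trem2 and Itgam were higher in Protocol 1A, at 412 and 120 CPM against 345 and 87.9 CPM in Protocol 3. In bulk libraries like these, fewer cells of a type and less RNA per cell cannot be told apart.

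Start sites are shown for 5 members that the results turn on: 3 that rose in all neonatal protocols, 1 that fell in all 3, and 1 that was higher in both cultured groups than in freshly isolated cells. Each sequence runs from 250 bases before to 50 bases after the RefSeq start (GRCm38.p6), 5′ to 3′ on the strand of the gene, and capitals mark the GC box GGGCGG or its reverse complement and the ETS motif CCGGAAG on either strand.
Zfp800 (chr6:28397956-28398255, minus strand): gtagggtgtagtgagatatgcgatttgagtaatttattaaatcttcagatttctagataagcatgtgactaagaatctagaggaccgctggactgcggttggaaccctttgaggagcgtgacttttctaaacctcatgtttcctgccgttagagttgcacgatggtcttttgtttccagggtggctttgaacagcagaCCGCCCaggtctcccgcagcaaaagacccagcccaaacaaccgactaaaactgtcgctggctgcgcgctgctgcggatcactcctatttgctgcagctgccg
Zfp263 (chr16:3743849-3744148, plus strand): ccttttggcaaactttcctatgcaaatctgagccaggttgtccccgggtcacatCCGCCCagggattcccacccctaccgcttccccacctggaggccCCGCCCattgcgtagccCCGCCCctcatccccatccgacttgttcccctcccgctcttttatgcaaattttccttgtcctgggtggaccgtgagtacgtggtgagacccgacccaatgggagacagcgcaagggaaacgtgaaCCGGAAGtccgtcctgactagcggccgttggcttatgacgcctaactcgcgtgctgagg
Zfp281 (chr1:136624651-136624950, plus strand): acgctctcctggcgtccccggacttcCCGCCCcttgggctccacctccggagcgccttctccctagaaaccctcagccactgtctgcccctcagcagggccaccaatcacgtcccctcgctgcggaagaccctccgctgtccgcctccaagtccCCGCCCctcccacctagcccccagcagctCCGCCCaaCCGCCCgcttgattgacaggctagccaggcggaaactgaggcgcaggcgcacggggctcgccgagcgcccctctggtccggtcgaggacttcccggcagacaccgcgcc
Zfp398 (chr6:47835411-47835710, plus strand): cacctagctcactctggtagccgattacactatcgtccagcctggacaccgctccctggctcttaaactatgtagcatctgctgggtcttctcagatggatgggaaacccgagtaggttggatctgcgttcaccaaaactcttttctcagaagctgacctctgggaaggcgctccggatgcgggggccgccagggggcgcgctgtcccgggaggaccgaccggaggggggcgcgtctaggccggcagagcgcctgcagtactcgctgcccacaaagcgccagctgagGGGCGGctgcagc
Zfp984 (chr4:147809739-147810038, minus strand): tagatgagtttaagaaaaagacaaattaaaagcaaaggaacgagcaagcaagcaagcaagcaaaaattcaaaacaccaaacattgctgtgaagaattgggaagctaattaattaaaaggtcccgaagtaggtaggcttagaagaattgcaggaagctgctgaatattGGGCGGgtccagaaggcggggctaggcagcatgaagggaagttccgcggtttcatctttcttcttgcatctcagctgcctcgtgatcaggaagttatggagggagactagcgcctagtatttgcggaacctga
The windows held 1 GC box in Zfp800, 3 in Zfp263, 4 in Zfp281, 1 in Zfp398 and 1 in Zfp984. An ETS motif stood in the Zfp263 window only among these 5. Neither the kB motif, GGGNN followed directly by TTTCC, nor the AP-1 motif TGANTCA was found in any of the 5. Over the 154 members matched in the RefSeq promoter table, the GC box was present in 53.9%, against 35.7% of all 32851 promoters in the table. The ETS motif was present in 24% of the members' promoters, against 8.86% of all. The kB motif was present in 2.6% against 1.63%, and the AP-1 motif in 3.9% against 7.81%. Motifs were searched on both strands, and the GC box and the ETS motif can overlap only at their ends. These matches describe letters and not bound sites. The members were chosen by their level and the promoters of the table were not, and the part of level in these shares was not tested.

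The response to HMGB1 was compared first in the neonatal cultures. In Protocol 1A, 32 of the 186 members were higher in HMGB1 cells and 90 were lower in edgeR's quasi-likelihood test with Benjamini-Hochberg adjustment, against 29.7% higher and 31.6% lower of all 13489 genes tested. In Protocol 1B, 35 members were higher and 101 lower, against 29.8% and 32% of 13598 genes. In Protocol 1C, 29 were higher and 105 lower, against 28.4% and 31.8% of 14328 genes. Among protein-coding genes of at least 5 CPM, 36.1%, 36% and 31.4% were higher in Protocols 1A, 1B and 1C and 32.3%, 34.6% and 36.2% were lower. The share of members that fell was thus above that of all genes in each neonatal protocol, and the share that rose was below it.

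The members' median log2 fold change, HMGB1 over Control, was -0.30 in Protocol 1A, -0.37 in Protocol 1B and -0.53 in Protocol 1C, where the median of all genes was -0.04, -0.02 and -0.04. Scaling by library total instead of TMM moved the median of all genes to -0.46, -0.50 and -0.67 and the members' counts to 15 higher and 147 lower in Protocol 1A, 12 and 145 in Protocol 1B, and 11 and 157 in Protocol 1C. Under that scaling, 14.9%, 15.3% and 14.9% of all genes were higher and 57.4%, 57.7% and 59.9% lower in Protocols 1A, 1B and 1C. Set against the median of all genes, the members' median stood at -0.26, -0.35 and -0.49, a difference that a change of scaling leaves as it is by construction.

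**Figure D1:**
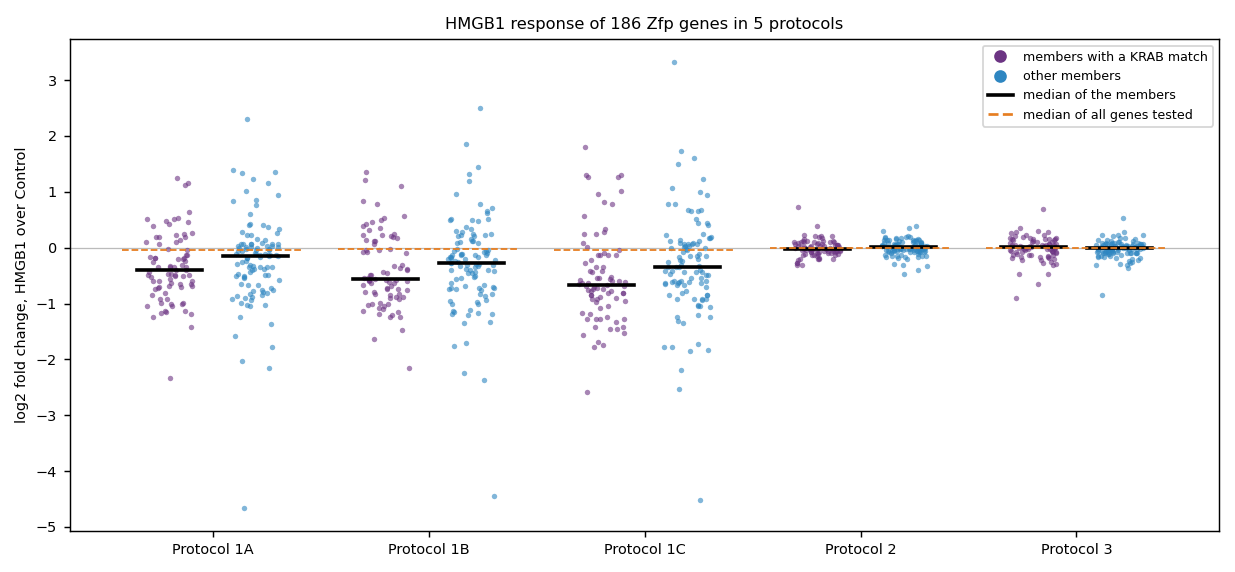
Log2 fold change of each of the 186 Zfp members, HMGB1 over Control, in each protocol (vertical axis), with KRAB members and other members drawn apart and the median of all genes as a dashed line. The members spread widely in Protocols 1A, 1B and 1C, with medians of -0.30, -0.37 and -0.53, and lie near 0 in Protocols 2 and 3.

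The KRAB members and the others were also counted apart. In Protocol 1A, 44 of the 81 KRAB members were lower and 11 higher, with a median of -0.41, and 46 of the 105 other members were lower and 21 higher, with a median of -0.16. In Protocol 1B the KRAB members counted 48 lower and 11 higher (median -0.56), and the others 53 lower and 24 higher (median -0.28). In Protocol 1C they counted 53 lower and 10 higher (median -0.68), and the others 52 lower and 19 higher (median -0.35). These are counts and medians, and the difference between the classes was not tested.

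The 3 neonatal protocols share no library. Over them, 22 members rose in all 3 (11.8% of the members), 6 of them KRAB members, where 22% of the 12719 genes tested in all 3 rose in each. In all, 79 members fell in all 3 (42.5%), 41 of them KRAB members, where 24% of all genes did. Zfp827 and Zfp948 rose in one protocol and fell in another, and 27 members passed in none.

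The largest rise was that of Zfp800 (chr6:28239927-28398005), a finger protein without a KRAB match whose human counterpart represses enteroendocrine genes in gut organoids. In Protocol 1A its level was 90.6, 98.2 and 93.5 CPM in HMGB1 cells and 19.8, 19.1 and 16.9 CPM in Control cells. In Protocol 1B it was 88.4, 101 and 86.8 CPM in HMGB1 cells and 17.5, 16.4 and 14.7 CPM in Control cells. In Protocol 1C it was 204, 186 and 196 CPM in HMGB1 cells and 23.5, 20.2 and 15.1 CPM in Control cells. No HMGB1 library overlapped a Control library in these 3 protocols, and the HMGB1 libraries of Protocol 1C stood above those of 1A and 1B. Members were named by fold change in a comparison only where its groups did not overlap. For them the lack of overlap, here and below, follows from that choice and adds no support. Zfp800 rose by a log2 fold change of 2.31 (SE 0.079, adjusted p = 1.75e-11) in Protocol 1A, 2.51 (SE 0.091, adjusted p = 3.31e-09) in Protocol 1B and 3.33 (SE 0.148, adjusted p = 1.23e-08) in Protocol 1C in the edgeR quasi-likelihood test.

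Zfp263 (chr16:3744093-3750790), whose human counterpart binds GA-rich DNA, was next in Protocols 1A and 1B. Its level was 116, 110 and 113 CPM in Protocol 1A HMGB1 cells, against 41.9, 42.6 and 42.3 CPM in Control cells. In Protocol 1B it was 122, 113 and 117 CPM in HMGB1 cells, against 31.3, 32.9 and 33.3 CPM in Control cells, and in Protocol 1C 88.6, 90.3 and 90.2 CPM, against 37.9, 39.0 and 38.6 CPM. The replicates of each group lay within a few CPM of each other and the groups did not overlap. Zfp263 rose by log2 fold changes of 1.39 (SE 0.062, adjusted p = 2.16e-10), 1.86 (SE 0.065, adjusted p = 2.6e-09) and 1.23 (SE 0.079, adjusted p = 9.78e-08) in Protocols 1A, 1B and 1C.

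Zfp281 (chr1:136624901-136630053) binds GC-rich DNA and is known from the control of pluripotency in embryonic stem cells. It had 49.0, 55.0 and 57.8 CPM in Protocol 1A HMGB1 cells, against 20.05, 22.2 and 20.1 CPM in Control cells. In Protocol 1B it had 63.6, 82.8 and 72.4 CPM in HMGB1 cells, against 28.8, 25.7 and 26.0 CPM in Control cells, and in Protocol 1C 86.4, 90.0 and 94.4 CPM, against 27.8, 25.2 and 28.9 CPM. Each HMGB1 library was above each Control library of its protocol. The log2 fold change was 1.35 (SE 0.088), 1.45 (SE 0.099) and 1.73 (SE 0.090), with adjusted p = 1.06e-08, 3.84e-07 and 1.73e-08 by edgeR.

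Zfp319 (chr8:95323011-95331950) had 78.4, 87.3 and 86.2 CPM in Protocol 1A HMGB1 cells and 29.8, 34.5 and 34.0 CPM in Control cells, a log2 fold change of 1.33 (SE 0.077, adjusted p = 2.95e-09 by edgeR), with 1.20 in Protocol 1B and 1.501 in Protocol 1C. Zfp658, a KRAB member whose human counterpart represses transcription in response to zinc, had 15.5, 16.04 and 19.1 CPM in Protocol 1C HMGB1 cells and 4.32, 6.17 and 3.97 CPM in Control cells, a log2 fold change of 1.81 (SE 0.187, adjusted p = 5.98e-06). Zfp324, also a KRAB member, had 23.9, 31.3 and 27.8 CPM in Protocol 1B HMGB1 cells and 10.3, 12.5 and 9.60 CPM in Control cells, a log2 fold change of 1.36 (SE 0.136, adjusted p = 7.85e-06). All 3 genes rose in each neonatal protocol, and their groups did not overlap.

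Zfp513, mutated in a human retinal dystrophy, had 64.3, 73.0 and 73.8 CPM in Protocol 1C HMGB1 cells and 17.2, 25.4 and 26.9 CPM in Control cells, a log2 fold change of 1.60 (SE 0.148, adjusted p = 3.87e-06 by edgeR). Its span overlaps that of Snx17, a gene of 105 CPM on the opposite strand, and the strand setting of the counting is not given in the sources used here. Reads of Zfp513 and Snx17 may thus not be told apart in shared sequence. Overlaps here and below are of whole gene spans, and whether exons overlap was not examined. Smaller rises in all 3 protocols were those of Zfp131, a BTB-domain factor, with log2 fold changes of 1.23, 0.65 and 0.77, of the spindle protein gene Zfp207 with 0.60, 0.71 and 0.68, and of the promoter-binding activator Zfp143 with 0.36, 0.50 and 0.51 in Protocols 1A, 1B and 1C. Scaled by library total, Zfp143 did not pass in any of the 3 and its sign turned in Protocols 1A and 1C (-0.061 and -0.12), Zfp131 did not pass in 1B and 1C, and Zfp207 did not pass in 1C.

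**Figure D2:**
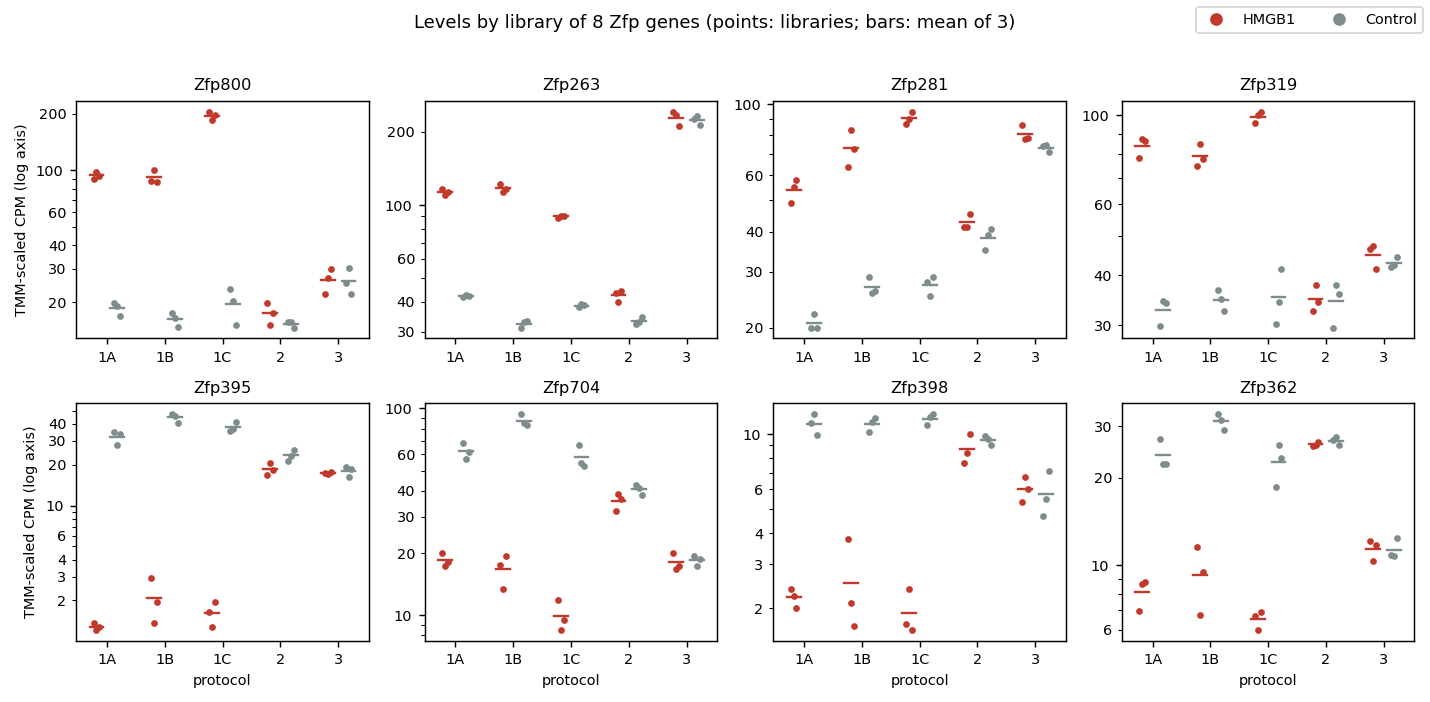
TMM-scaled CPM by library (log axis) of 4 members that rose in the neonatal protocols (upper row) and 4 that fell (lower row), HMGB1 left of Control in each protocol, with bars at the mean of 3 libraries. Zfp395 lies at 1.22 to 1.36 CPM in the Protocol 1A HMGB1 libraries and at 28.0 to 34.9 CPM in the Control libraries, while in Protocols 2 and 3 the points of both treatments lie close together.

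The deepest fall was that of Zfp395 (chr14:65358389-65398930), a gene whose human counterpart is induced by low oxygen. Its level was 1.36, 1.22 and 1.27 CPM in Protocol 1A HMGB1 cells, against 34.9, 28.0 and 33.4 CPM in Control cells. In Protocol 1B it was 2.92, 1.36 and 1.96 CPM in HMGB1 cells, against 47.1, 45.8 and 40.8 CPM in Control cells, and in Protocol 1C 1.65, 1.28 and 1.96 CPM, against 35.5, 36.7 and 41.0 CPM. All 9 HMGB1 libraries were far below all 9 Control libraries. The fold change on the log2 scale was -4.67 (SE 0.149, adjusted p = 8.36e-12), -4.45 (SE 0.176, adjusted p = 1e-08) and -4.51 (SE 0.161, adjusted p = 1.16e-09) in Protocols 1A, 1B and 1C by edgeR.

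Zfp704 (chr3:9427020-9610085), which encodes a relative of Zfp395, fell too. It had 20.1, 17.2 and 18.1 CPM in Protocol 1A HMGB1 cells, against 67.9, 56.7 and 61.9 CPM in Control cells. In Protocol 1B it had 17.6, 13.5 and 19.4 CPM, against 93.8, 85.5 and 82.8 CPM, and in Protocol 1C 11.9, 8.52 and 9.53 CPM, against 66.8, 54.5 and 52.8 CPM. No library of one treatment overlapped the other in any of the 3 protocols, with log2 fold changes of -1.78 (SE 0.091), -2.36 (SE 0.115) and -2.52 (SE 0.145) and adjusted p = 8.93e-10, 5.05e-08 and 4.35e-08 by edgeR.

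Zfp398 (chr6:47835661-47873537), a KRAB member whose human counterpart supports pluripotency, had 2.39, 2.24 and 2.01 CPM in Protocol 1A HMGB1 cells and 11.1, 12.01 and 9.89 CPM in Control cells. The log2 fold change of Zfp398 was -2.33 (SE 0.173, adjusted p = 4.36e-08) there, -2.15 (SE 0.253, adjusted p = 3.41e-05) in Protocol 1B and -2.58 (SE 0.196, adjusted p = 4.27e-07) in Protocol 1C by edgeR. Zfp362 had 6.94, 8.61 and 8.77 CPM in Protocol 1A HMGB1 cells and 27.0, 22.3 and 22.3 CPM in Control cells, a log2 fold change of -1.59 (SE 0.128, adjusted p = 1.07e-07). No HMGB1 library reached a Control library for either gene.

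Zfp41 had 3.43, 1.67 and 4.16 CPM in Protocol 1B HMGB1 cells and 14.4, 14.9 and 15.3 CPM in Control cells, a log2 fold change of -2.24 (SE 0.250, adjusted p = 3.83e-05 by edgeR). Zfp532, whose product sits in a complex with Zfp592, Zfp687 and the chromatin reader Zmynd8, had 2.81, 2.57 and 1.48 CPM in Protocol 1C HMGB1 cells and 9.34, 12.2 and 9.88 CPM in Control cells, a log2 fold change of -2.18 (SE 0.239, adjusted p = 9.65e-06). Both genes fell in all 3 neonatal protocols.

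By role, 27 of 31 listed DNA-binding regulators without a KRAB box were members. Of them 7 rose and 11 fell in Protocol 1A, 9 and 13 in Protocol 1B, and 8 and 13 in Protocol 1C, with medians of -0.11, -0.20 and 0.07. Of 14 members that act on RNA, ribosomes, ubiquitin or the spindle, 3 rose and 6 fell in Protocol 1A, 3 and 7 in Protocol 1B, and 1 and 7 in Protocol 1C. Their medians were -0.11, -0.17 and -0.24. Of all genes tested, 29.7% were higher and 31.6% lower in Protocol 1A, 29.8% and 32% in 1B, and 28.4% and 31.8% in 1C.

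Of the 6 listed silencers of imprinted genes and retroelements, Zfp445, Zfp568 and Zfp809 were members. Zfp809, which silences murine leukaemia proviruses, had 3.65, 4.26 and 4.34 CPM in Protocol 1C HMGB1 cells and 12.01, 10.7 and 12.5 CPM in Control cells, and its log2 fold change was -0.81, -0.55 and -1.52 in Protocols 1A, 1B and 1C, with adjusted p = 0.000315, 0.0233 and 8.34e-06 by edgeR. The call in Protocol 1B was lost without Control replicate 1 (-0.37, adjusted p = 0.119), Control replicate 2 or HMGB1 replicate 3, and by DESeq2's Wald test. Zfp568, which represses a placental Igf2 transcript, fell in Protocol 1B (-0.59, adjusted p = 0.00165), and its values of 0.22 and -0.12 in Protocols 1A and 1C did not pass. Zfp445, which guards imprints, fell in Protocol 1C (-0.34, adjusted p = 0.0115), and its values of -0.03 and -0.05 in Protocols 1A and 1B did not pass, although both did when scaled by library total (-0.45 and -0.52). Whether the last 2 genes differed between the protocols was not tested.

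The corepressors through which KRAB proteins act were read beside them. Of 40 listed corepressor and partner genes, 13 rose and 13 fell in Protocol 1A, 10 and 16 in Protocol 1B, and 9 and 14 in Protocol 1C (medians -0.03, -0.10 and -0.13), which is near the shares of all genes just given in Protocol 1A, and none of 39 passed in Protocol 2 or in Protocol 3 (edgeR). Trim28 had 108, 96.9 and 97.6 CPM in Protocol 1A HMGB1 cells, against 126, 125 and 136 CPM in Control cells, and its log2 fold change was -0.38, -0.32 and -0.45 in Protocols 1A, 1B and 1C (adjusted p = 0.000186, 0.000869 and 0.00167). Setdb1 had 36.6, 40.4 and 32.8 CPM in Protocol 1A HMGB1 cells, against 63.1, 60.9 and 59.3 CPM in Control cells, with log2 fold changes of -0.76, -0.92 and -1.19 (adjusted p = 1.6e-06, 1.23e-06 and 1e-06). Both were lower in each neonatal protocol without overlap. The DNA methyltransferase gene Dnmt1 and its partner gene Uhrf1 fell further, by 1.46 and 1.87 on the log2 scale in Protocol 1A, and Dnmt1 fell by 1.62 in Protocol 1B and by 1.65 in Protocol 1C. The de novo methyltransferase gene Dnmt3a fell by 1.20 in Protocol 1B.

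Other genes of the list rose, Daxx most. Daxx, which encodes a chaperone of histone H3.3, had 482, 565 and 549 CPM in Protocol 1A HMGB1 cells, against 41.0, 52.2 and 81.2 CPM in Control cells, with log2 fold changes of 3.17, 4.22 and 3.68 in Protocols 1A, 1B and 1C (adjusted p = 0.000781, 6.85e-10 and 8.34e-07 by edgeR). Hdac1, a histone deacetylase gene, had 112, 118 and 116 CPM in Protocol 1A HMGB1 cells, against 53.9, 54.1 and 55.1 CPM in Control cells, with log2 fold changes of 1.06, 1.32 and 1.32. The retroelement silencing factor gene Resf1 rose by log2 fold changes of 1.48, 2.08 and 1.97, and Morc3, which encodes a chromatin ATPase, by 1.09, 1.25 and 1.56. The Daxx, Hdac1, Resf1 and Morc3 groups did not overlap in any of the 3 protocols. The abundant partners Chd4 and Mta2 did not pass in Protocol 1A (-0.13 and -0.02), although both did when scaled by library total (-0.55 and -0.44).

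Neighbouring genes were read as runs. The run of 9 members at chr7:127233061-127885996 (Zfp553, Zfp771, Zfp768, Zfp747, Zfp764, Zfp688, Zfp629, Zfp668 and Zfp646), 3 of them KRAB members, had 0 members higher and 7 lower in Protocol 1A, 0 and 7 in Protocol 1B, and 0 and 8 in Protocol 1C, with medians of -0.53, -0.64 and -0.66. Zfp764 had 5.91, 4.77 and 4.42 CPM in Protocol 1A HMGB1 cells and 9.71, 9.80 and 9.98 CPM in Control cells, with log2 fold changes of -0.99, -1.14 and -1.27 in Protocols 1A, 1B and 1C. Zfp771 did not pass the edgeR test in any of the 3 (-0.03, -0.11 and -0.35), although it passed in each when scaled by library total. The spans of Zfp646 and Zfp668 overlap on opposite strands, so their reads may not be told apart in shared sequence. None of the 9 passed in Protocol 2 or 3. The run was singled out after its values were seen. In the run of 8 KRAB members at chr13:67387905-67729173, 1 rose and 5 fell in Protocol 1A, 0 and 7 in Protocol 1B, and 1 and 7 in Protocol 1C. Of all members 48.4%, 54.3% and 56.5% fell, and of the KRAB members 54.3%, 59.3% and 65.4%. The proteins of Zfp874a, Zfp738, Zfp729a, Zfp429, Zfp729b and Zfp65 share 32.7% to 63.15% of their 12-residue words with other Zfp proteins. Zfp87 and Zfp748 share 15.8% and 12.6%. Some reads of this run may thus be split between similar genes.

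**Figure D3:**
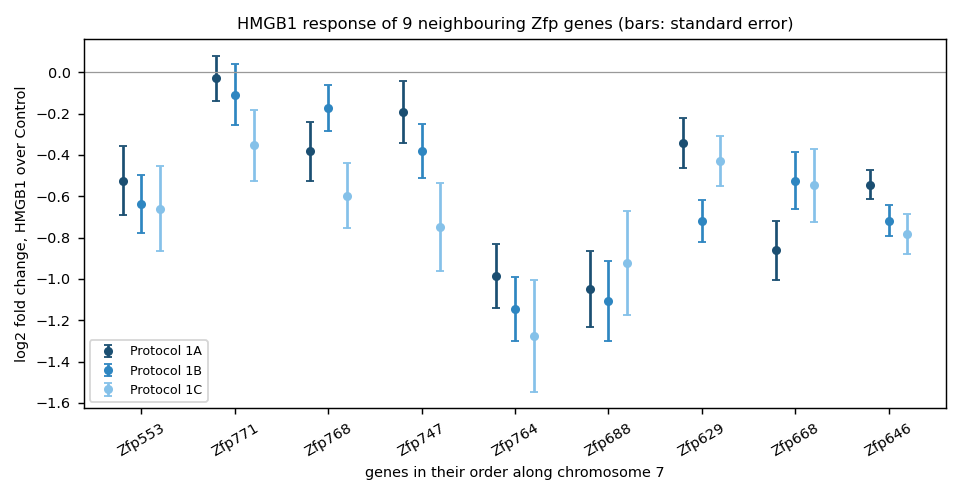
Log2 fold change, HMGB1 over Control, of the 9 members of the chromosome 7 run in gene order (horizontal axis) in the 3 neonatal protocols, with bars at 1 standard error. In Protocols 1A, 1B and 1C all values lie below 0, with medians of -0.53, -0.64 and -0.66, and none of the 9 passed the test in Protocol 2 or 3.

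Markers of other cells also moved with HMGB1 in the neonatal cultures. Neutrophil marker genes summed to 135 to 155 CPM in Protocol 1A HMGB1 cells against 30.1 to 31.1 CPM in Control cells, 97.5 to 110.0 CPM against 3.30 to 4.32 CPM in Protocol 1B, and 663 to 866 CPM against 305 to 360 CPM in Protocol 1C, with the defining genes Elane, Retnlg and Ly6g at 0 in all of these groups. Endothelial marker genes summed to 74.8 to 117 CPM in Protocol 1A HMGB1 cells against 35.4 to 54.3 CPM in Control cells, 43.3 to 75.6 CPM against 17.7 to 24.9 CPM in Protocol 1B, and 212 to 315 CPM against 47.0 to 61.3 CPM in Protocol 1C. The defining endothelial gene Cldn5 was at 0 in all of these groups except Protocol 1A HMGB1. Where a defining gene was at 0, the sum rests on the other listed genes. Whether neutrophils or endothelial cells were present was not tested, nor was any part of theirs in the members' changes.

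In Protocol 2, 1 of the 186 members passed the edgeR test, higher in HMGB1 cells, and none was lower, against 1.21% higher and 0.283% lower of all 15564 genes tested (1.89% and 0.428% of protein-coding genes of at least 5 CPM). An unadjusted p under 0.05 was found for 14 members, against 9.11% of all genes. The gene was Zfp263, with 43.5, 39.9 and 44.4 CPM in HMGB1 cells and 32.5, 32.9 and 34.7 CPM in Control cells, a log2 fold change of 0.35 (SE 0.067, adjusted p = 0.0215). The groups did not overlap, but the adjusted p was between 0.0582 and 0.128 without any one of 5 of the 6 libraries (Control replicate 1, 2 or 3, HMGB1 replicate 1 or 3). The replicate numbers pair the libraries here, and with the replicate as a block 4 members rose and 5 fell, against 4.63% and 3.31% of all genes in the blocked fit. The 4 were Zfp263 (0.35), Zfp658 (0.73), Zfp719 (0.39) and Zfp993 (0.40), and the 5 were Zfp395 (-0.34), Zfp346 (-0.39), Zfp652 (-0.18), Zfp821 (-0.32) and Zfp623 (-0.48). Zfp395 had 16.8, 20.6 and 18.3 CPM in Protocol 2 HMGB1 cells and 21.2, 23.4 and 25.7 CPM in Control cells. Without the block it did not pass (-0.34, adjusted p = 0.2).

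In Protocol 3, none of the 186 members passed in either direction, against 0.123% higher and 0% lower of all 15401 genes tested (0.168% and 0% of protein-coding genes of at least 5 CPM) in edgeR. An unadjusted p under 0.05 was found for 10 members, against 5.23% of all genes. DESeq2's Wald test also called none. With the replicate as a block, where 1.7% of all genes rose and 0.468% fell, 1 member fell, Zfp710, at -0.30 (adjusted p = 0.0065), with 35.8, 38.6 and 40.1 CPM in HMGB1 cells and 44.3, 48.4 and 50.2 CPM in Control cells. Zfp800 had 22.0, 26.7 and 29.9 CPM in Protocol 3 HMGB1 cells and 25.1, 30.2 and 22.2 CPM in Control cells. Zfp395 had 17.4, 17.2 and 17.6 CPM in HMGB1 cells and 19.3, 16.1 and 18.6 CPM in Control cells. Both genes overlapped between the treatments.

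The responses themselves were compared as a difference of log2 fold changes in a fit of all 30 libraries, in which the 3 neonatal protocols were averaged as Protocol 1. For Protocol 1 minus Protocol 2, 27 members were higher and 95 lower, against 20.6% and 22.9% of all genes tested, and 46 of the 95 were KRAB members. For Protocol 1 minus Protocol 3, 29 were higher and 83 lower, against 22.5% and 20.2% of all genes, and 43 of the 83 were KRAB members. Scaled by library total, the counts were 8 higher and 152 lower against Protocol 2, and 10 higher and 152 lower against Protocol 3, where 10.5% and 46.2% of all genes passed against Protocol 2 and 11.1% and 41.5% against Protocol 3. The 2 differences share the Protocol 1 libraries. For Protocol 2 minus Protocol 3, no member passed, against 0.346% and 0.022% of all genes, and 8 had an unadjusted p under 0.05, against 5.61% of all genes.

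Zfp800 had the largest positive difference, 2.54 (SE 0.150, adjusted p = 1.51e-14 by edgeR) against Protocol 2 and 2.70 (SE 0.149, adjusted p = 2.47e-15) against Protocol 3. Zfp395 had the largest negative difference, -4.21 (SE 0.160, adjusted p = 1.09e-19) against Protocol 2 and -4.49 (SE 0.164, adjusted p = 2.17e-20) against Protocol 3. Zfp281, Zfp398 and Zfp704 also differed from both adult protocols. So did Zfp263, by 1.14 (SE 0.071, adjusted p = 1.27e-14) against Protocol 2 and 1.46 (SE 0.069, adjusted p = 1.2e-17) against Protocol 3.

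Untreated cells were then compared. Over the 5 Control groups, the ratio of the highest to the lowest group mean had a median of 2.37 over the 186 members, and it was at least 2 in 113 members, at least 4 in 33 and at least 8 in 6. The highest Control group was Protocol 3 for 80 members, of which 28 were KRAB members and 52 others. It was Protocol 2 for 32 members, 1A for 30, 1B for 23 and 1C for 21. The ratios and the highest group were not counted over all genes, so they are not shown to be particular to the Zfp genes.

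Between Protocol 1 and Protocol 3 Control cells, 82 members were higher and 81 lower, against 37.3% and 42.9% of all 17033 genes tested in edgeR and 48.7% and 40.6% of protein-coding genes of at least 5 CPM. Of the 81 KRAB members 44 were higher and 27 lower, and of the 105 others 38 were higher and 54 lower. Scaled by library total, 105 members were higher and 61 lower, against 46.5% and 33.3% of all genes, and the median of all genes was 0.33 in place of -0.12. The median log2 fold change was 0.65 over the KRAB members and -0.36 over the others, and the value of the others turned to 0.09 when scaled by library total. Set against the median of all genes these were 0.77 and -0.24. The difference between the classes was not tested. Membership rests on a mean over all libraries, most of them of Protocol 1. The KRAB members lay closer to the membership level, with a median of 10.1 CPM against 22.3 CPM. KRAB genes low in Protocol 1 may thus have been left out more often, and the part of the rule in these counts was not tested. Neutrophil marker genes summed to 30.1 to 31.1 CPM in Protocol 1A, 3.30 to 4.32 CPM in 1B and 305 to 360 CPM in 1C Control cells, against 425 to 876 CPM in Protocol 3 Control cells, and the defining genes Elane, Retnlg and Ly6g were at 0 in the 3 neonatal groups. Endothelial marker genes summed to 17.7 to 61.3 CPM over the Protocol 1 Control libraries, with Cldn5 at 0, against 183 to 206 CPM in Protocol 3, and astrocyte marker genes to 29.6 to 90.2 CPM against 9.28 to 11.4 CPM. The part of these cells in the difference was not tested.

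Between Protocol 2 and Protocol 3 Control cells, 78 members were higher and 82 lower, against 40.1% and 37.2% of all genes tested and 47.1% and 40.3% of protein-coding genes of at least 5 CPM. Of the KRAB members 43 were higher and 25 lower (median 0.49), and of the others 35 were higher and 57 lower (median -0.39). The difference between the classes, and the part of the membership rule in it, was not tested here either. Both comparisons use the same Protocol 3 libraries. Fibroblast and mural marker genes summed to 446 to 495 CPM in Protocol 2 Control cells, against 41.1 to 55.0 CPM in Protocol 3 Control cells, neutrophil marker genes to 50.1 to 58.7 CPM against 425 to 876 CPM, and endothelial marker genes to 86.8 to 94.0 CPM against 183 to 206 CPM. Their part in the difference was not tested either. Of the 27 listed DNA-binding regulators without a KRAB box, 8 were higher and 17 lower in Protocol 1 and 7 higher and 17 lower in Protocol 2. Of the 14 members acting on RNA, ribosomes, ubiquitin or the spindle, 3 were higher and 9 lower in Protocol 1 and 2 higher and 10 lower in Protocol 2.

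**Figure D4:**
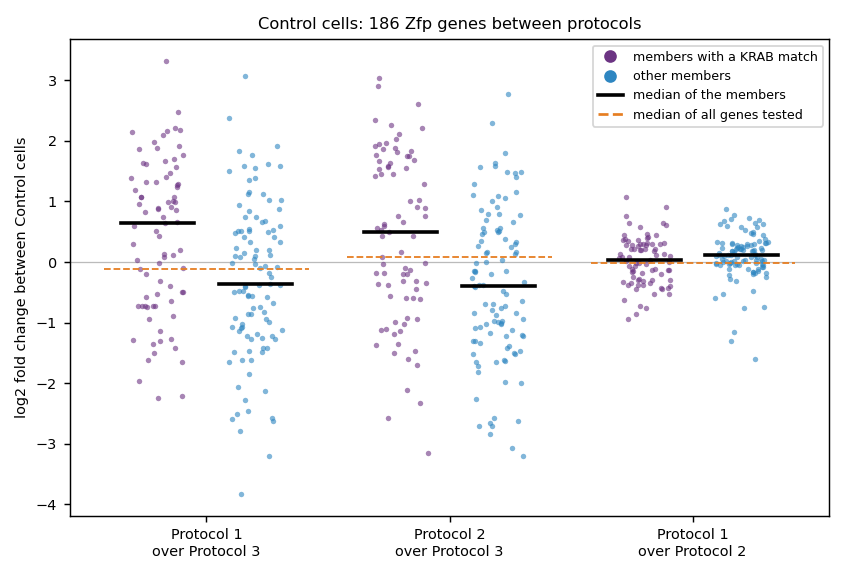
Log2 fold change between Control groups of each of the 186 members (vertical axis), KRAB members and other members drawn apart, with the median of all genes as a dashed line. Against Protocol 3, the KRAB members have medians of 0.65 in Protocol 1 and 0.49 in Protocol 2, and the other members -0.36 and -0.39. The difference between the classes was not tested.

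Lower in both cultured groups was Zfp703 (chr8:26977325-26981461), which encodes a corepressor of the NET family. It had 35.9, 54.1 and 59.1 CPM as the lowest, median and highest of the 9 Protocol 1 Control libraries, 51.3, 53.0 and 54.6 CPM in Protocol 2 Control cells, and 510, 477 and 397 CPM in Protocol 3 Control cells. The cultured libraries were all far below the freshly isolated ones. The log2 fold change was -3.20 (SE 0.083, adjusted p = 2.97e-17) for Protocol 1 and -3.21 (SE 0.121, adjusted p = 1.63e-14) for Protocol 2 against Protocol 3 by edgeR.

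Zfp516, known from the activation of Ucp1 in brown fat, had 37.6, 42.7 and 48.9 CPM as lowest, median and highest in Protocol 1 Control cells and 251, 278 and 335 CPM in Protocol 3 Control cells, a log2 fold change of -2.78 (SE 0.065, adjusted p = 1.13e-18 by edgeR). Zfp827, whose human counterpart brings the NuRD complex to telomeres, had 1.17, 2.38 and 7.11 CPM in Protocol 1 and 49.2, 42.6 and 32.5 CPM in Protocol 3, a log2 fold change of -3.83 (SE 0.133, adjusted p = 5.32e-16). Its mean in Protocol 1 Control cells, 3.54 CPM, was under the membership level, so its membership leans on Protocol 3. Zfp263 had 31.3, 38.6 and 42.6 CPM in Protocol 1, 32.5, 32.9 and 34.7 CPM in Protocol 2, and 226, 233 and 214 CPM in Protocol 3. The log2 fold change of Zfp263 was -2.63 for Protocol 1 and -2.83 for Protocol 2 against Protocol 3, and its HMGB1 libraries in Protocols 1 and 2 also lay below all Protocol 3 libraries.

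**Figure D5:**
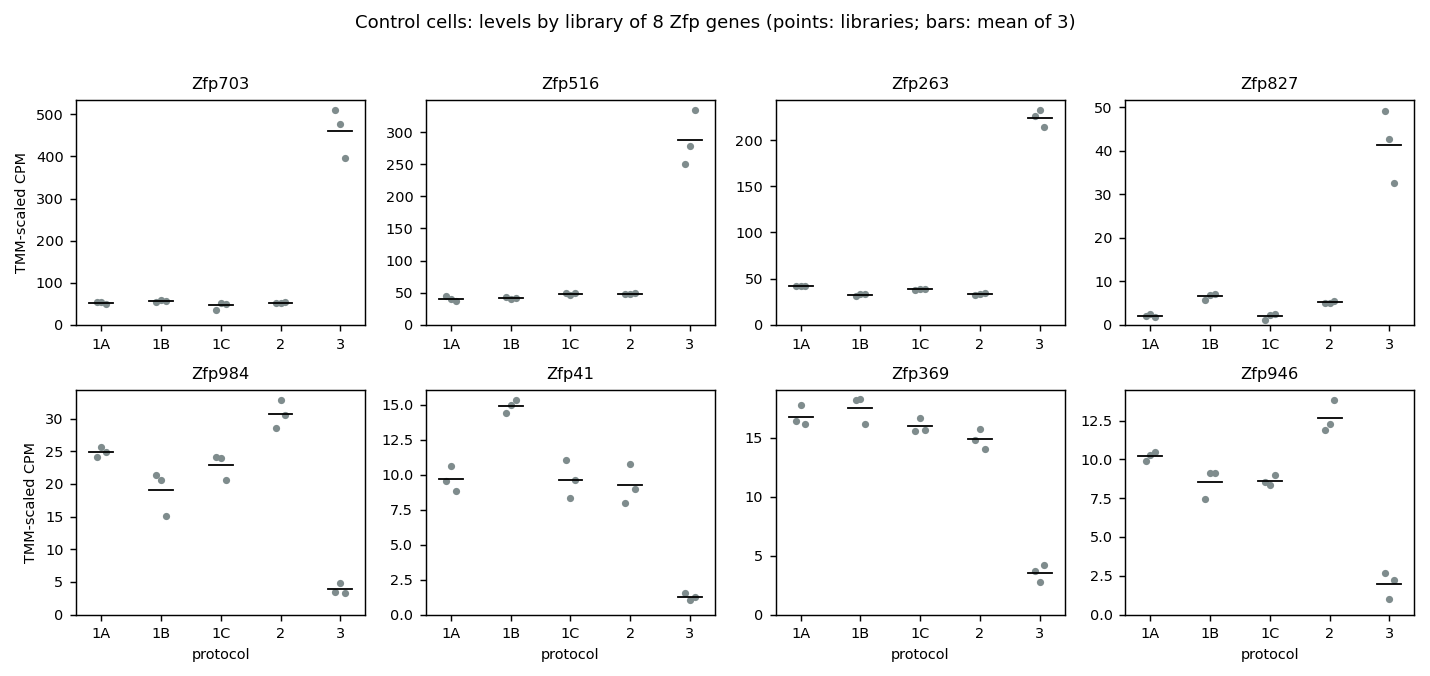
TMM-scaled CPM by library (linear axes from 0, with a scale of its own for each gene) in the 5 Control groups, with bars at the mean of 3 libraries, for 4 members lower in the cultured groups (upper row) and 4 higher (lower row). Zfp703 lies at 397 to 510 CPM in Protocol 3 and at 35.9 to 59.1 CPM in Protocol 1.

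Zfp382, a KRAB member, had 3.996, 3.75 and 3.67 CPM in Protocol 2 Control cells and 33.9, 33.4 and 28.3 CPM in Protocol 3 Control cells, a log2 fold change of -3.15 (SE 0.140, adjusted p = 4.58e-14 by edgeR). Of the listed regulators, Zfp335, Zfp131, Zfp592 and Zfp609 were lower in Protocol 1 than in Protocol 3 by log2 fold changes of -2.57, -2.50, -2.28 and -2.06. Zfp91, which encodes a ubiquitin ligase of the noncanonical NF-kB pathway, and Zfp622, which encodes a ribosome maturation factor, were lower by -0.83 and -1.62. The groups of all 7 genes did not overlap. The span of Zfp335 overlaps that of Pcif1, a gene of 56.9 CPM on the opposite strand, so reads of Zfp335 and Pcif1 may not be told apart in shared sequence.

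Higher in the cultured groups was Zfp984 (chr4:147753974-147809788), a KRAB member. It had 15.1, 24.0 and 25.6 CPM as lowest, median and highest in Protocol 1 Control cells, 28.5, 32.9 and 30.5 CPM in Protocol 2, and 3.48, 4.79 and 3.28 CPM in Protocol 3. The log2 fold change was 2.47 (SE 0.134, adjusted p = 6.61e-13) for Protocol 1 and 2.91 (SE 0.148, adjusted p = 3.79e-13) for Protocol 2 against Protocol 3 by edgeR. The protein of Zfp984 shares 45.3% of its 12-residue words with other Zfp proteins, 22.5% with the closest, Zfp990, so some reads may be split between similar genes. Zfp984 belongs to a run of 5 members at chr4:146449023-147848366, of which 4 exceeded Protocol 3 in Protocol 1 and 5 did so in Protocol 2, and all 5 were lower in Protocol 1 when set against Protocol 2. In this run Zfp991 and Zfp992 share 90.9% and 90.7% of their words with each other. Their reads may be split, so the 5 may not count as separate results.

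Zfp41 had 8.33, 10.6 and 15.3 CPM as lowest, median and highest in Protocol 1 Control cells and 1.54, 1.06 and 1.23 CPM in Protocol 3 Control cells, a log2 fold change of 3.07 (SE 0.168, adjusted p = 7.49e-13 by edgeR). Zfp637 had 8.75, 11.2 and 14.004 CPM in Protocol 1 and 1.54, 1.98 and 2.68 CPM in Protocol 3 (2.38, adjusted p = 3.44e-11). Zfp369, a KRAB member, had 15.6, 16.4 and 18.3 CPM in Protocol 1 and 3.74, 2.76 and 4.21 CPM in Protocol 3 (2.17, adjusted p = 1.04e-12). The groups did not overlap for any of the 3. In Protocol 2, the KRAB members Zfp946 and Zfp65 were higher than in Protocol 3 by log2 fold changes of 2.60 (SE 0.209) and 2.26 (SE 0.165). Both stand in runs, Zfp946 in that of 13 KRAB members at chr17:21008903-23193252, where, against Protocol 3, 8 were higher and 2 lower in Protocol 1 and 9 were higher and 1 was lower in Protocol 2. Of all KRAB members, 54.3% were higher and 33.3% lower in Protocol 1, and 53.1% and 30.9% in Protocol 2.

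The corepressor genes differed as well. Trim28 had 200, 207 and 212 CPM in Protocol 3 Control cells, and it was lower in Protocol 1 by a log2 fold change of -0.62 (SE 0.048, adjusted p = 1.83e-10) and in Protocol 2 by -1.19 (SE 0.061, adjusted p = 4.61e-13) by edgeR. Setdb1 was higher in Protocol 1 (0.75) and Protocol 2 (0.50), and Dnmt1 was higher by 3.01 and 2.11. Of the 40 listed genes, 17 were higher and 19 lower in Protocol 1 and 14 higher and 21 lower in Protocol 2, so the list had no single direction. Morc2a, a partner of the HUSH silencing complex, and Gatad2a, a NuRD subunit gene, were lower in Protocol 1 by log2 fold changes of -2.54 and -2.12 and in Protocol 2 by -2.60 and -2.22.

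Between Protocol 1 and Protocol 2 Control cells, 61 members were higher and 34 lower, against 24.6% and 30.7% of all genes tested and 35.5% and 28% of protein-coding genes of at least 5 CPM. Scaled by library total, the counts were 89 and 19, against 33.1% and 25.5% of all genes. Of the KRAB members 21 were higher and 22 lower, and of the others 40 were higher and 12 lower. Zfp346, which binds double-stranded RNA, had 10.6, 15.2 and 22.1 CPM as lowest, median and highest in Protocol 1 and 42.01, 55.5 and 50.4 CPM in Protocol 2, a log2 fold change of -1.59 (SE 0.104, adjusted p = 2.11e-10 by edgeR). Zfp532 had 6.12, 7.27 and 12.2 CPM in Protocol 1 and 19.9, 21.1 and 18.8 CPM in Protocol 2 (-1.31, SE 0.124, adjusted p = 2.95e-08). Zfp318, which is needed for IgD on B cells, had 31.0, 40.1 and 57.3 CPM in Protocol 1 and 23.0, 24.0 and 23.5 CPM in Protocol 2 (0.88, SE 0.069, adjusted p = 2.06e-09). Zfp395 and Zfp704, the pair that fell with HMGB1, were higher in Protocol 1 by 0.73 and 0.77. Fibroblast and mural marker genes summed to at most 130 CPM in each Protocol 1 Control group and to 446 to 495 CPM in Protocol 2 Control cells, and the part of these cells in the difference was not tested.

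Within Protocol 1, cells grown without GM-CSF (1B) differed from cells grown with it (1A) in 22 members higher and 27 lower, against 18.2% and 12.6% of all genes tested. Among the 9592 protein-coding genes of at least 5 CPM, 2073 were higher and 1608 lower. These are larger shares in both directions than the members' 11.8% and 14.5%. Zfp467, known from the choice between fat and bone cells, had 21.3, 23.9 and 18.9 CPM in Protocol 1B Control cells and 40.4, 37.9 and 43.2 CPM in Protocol 1A Control cells, a log2 fold change of -0.88 (SE 0.129, adjusted p = 2.72e-05 by edgeR). Zfp52, a KRAB member, had 9.71, 9.79 and 8.33 CPM in 1B and 17.3, 16.9 and 16.3 CPM in 1A (-0.82, SE 0.117, adjusted p = 1.83e-05). Zfp346 had 20.3, 22.1 and 21.1 CPM in 1B and 10.6, 13.3 and 14.5 CPM in 1A (0.77, SE 0.143, adjusted p = 0.00037). The groups of these 3 genes did not overlap. Zfp608, Zfp503, Zfp41, Zfp444 and Zfp251 also passed, the first 2 lower in 1B (-0.77 and -0.78) and the other 3 higher (0.66, 0.57 and 0.53).

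Cells grown for 21 days (1C) differed from cells grown for 10 days (1A) in 13 members higher and 7 lower, against 13.1% and 7.91% of all genes tested. Scaled by library total, the counts were 7 and 16, against 10.2% and 10.9% of all genes. Zfp318 had 55.1, 57.3 and 55.6 CPM in Protocol 1C Control cells and 40.1, 40.4 and 37.2 CPM in Protocol 1A Control cells, a log2 fold change of 0.53 (SE 0.079, adjusted p = 6.82e-05 by edgeR). Zfp281 had 27.8, 25.2 and 28.9 CPM in 1C and 20.05, 22.2 and 20.1 CPM in 1A (0.41, SE 0.083, adjusted p = 0.00125). Zfp217, an oncogene product found in corepressor complexes, was lower in 1C by -0.35 (SE 0.084, adjusted p = 0.00439), and Zfp52 by -0.46 (SE 0.115, adjusted p = 0.00666). Zfp532 (0.63), Zfp991 (0.43), Zfp386 (-0.36) and Zfp503 (-0.54) passed only in some settings, since each lost its call without at least 1 single library. With 1A Control replicate 2 or 1C Control replicate 1 left out, 6 or 8 members were higher, and without 1C Control replicate 3, 2 were lower.

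The 6 members of highest mean level were Zfp91, Zfp106, Zfp207, Zfp710, Zfp703 and Zfp516. Zfp91 averaged 142 ± 3.01, 148 ± 8.13, 156 ± 5.49, 133 ± 8.41 and 255 ± 22.3 CPM (SD, n = 3 each) in the Control cells of Protocols 1A, 1B, 1C, 2 and 3. Zfp106, which encodes an RNA-binding protein needed by motor neurons, averaged 151, 120, 135, 143 and 136 CPM in the same groups. Zfp710 averaged 162 ± 13.7, 104 ± 1.55, 128 ± 11.2, 87.7 ± 2.00 and 47.6 ± 3.01 CPM (SD, n = 3 each). Zfp91 was thus highest in freshly isolated cells and Zfp710 lowest there, and Zfp106 lay between 120 and 151 CPM.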

How the data were processed

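The authors aligned reads with HISAT2 2.0.5 and deposited gene counts from featureCounts 1.5.0-p3, as the submitters' processing notes name them. The genome build and the strand setting of the counting are not given in the sources used here. Positions in the table are identical to GENCODE M21 (GRCm38) for 98.3% of shared gene identifiers, so that build is used. The deposited counts of all 30 libraries were used without change, and library totals were 14151983 to 28564757. The tests measure the spread between replicates, and low counts add counting error.

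Counts were tested in R 4.3.3 with edgeR 4.0.16 (TMM scaling, filterByExpr, robust quasi-likelihood F test, Benjamini-Hochberg adjustment over all genes of a fit, threshold 0.05). The procedure was also run on simulated data in which few genes changed, equally up and down. Far more genes passed in the neonatal responses, so that run does not bear on the choice of scaling there. The 5 HMGB1 responses were fitted on 6 libraries each, the 5 Control comparisons on the 15 Control libraries and the 3 differences of responses on all 30. A log2 fold change is the first-named group over the second. Alternatives were DESeq2 1.42.0, other scalings, filters and membership levels, single libraries left out and a replicate block. Scaling by library total and leaving out overlapping or near-identical members were added after seeing the data.

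A KRAB match is at least 12 of 34 residues identical, without gaps, to a consensus KRAB A box in any complete GENCODE M21 coding sequence, and fingers were counted by a C2H2 pattern. Promoter sequences are RefSeq's (GRCm38.p6). The members, gene lists and tests were chosen with earlier results of these data known. Named are up to 4 members per direction and comparison with the largest fold change among those past the threshold, with no overlap between groups and at least 10 CPM in the higher group, the 6 members of highest level, the members of 3 role lists and those next to the membership threshold. Of the corepressors, up to 3 of lowest adjusted p among those called and up to 2 of the most abundant others were to be named per comparison, which was followed in part, and Trim28 and Setdb1 were named for their role.

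Replicate numbers are shared between the treatments of a protocol. Over all genes, deviations of same-numbered libraries from their group means correlated above 0.1 in every pair of Protocols 1B, 1C, 2 and 3 (0.131 to 0.517), but at 0.0999, 0.0700 and 0.132 in Protocol 1A, so the numbers were taken as pairs in the first 4 only. This pairing comes from the data and not from the labels. The replicate block is given beside a result where it changes the call.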

Additional observations from a re-analysis of the deposited data

Results flagged for a closer look

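The HMGB1 responses differed for many members, with 27 higher and 95 lower for Protocol 1 minus Protocol 2 and 29 higher and 83 lower for Protocol 1 minus Protocol 3, in the test of the difference itself (edgeR quasi-likelihood test on all 30 libraries, Benjamini-Hochberg adjustment). Given here are the largest, up to 4 in each direction, which are 11 members in all. The values are differences of log2 fold changes, Protocol 1 minus an adult protocol. Against Protocol 2, the HMGB1 response of Protocol 1 was higher by 2.54 for Zfp800, 1.36 for Zfp281, 1.33 for Zfp319 and 1.22 for Zfp513, and the difference was -4.21 for Zfp395, -2.22 for Zfp398, -2.03 for Zfp704 and -1.75 for Zfp41. Against Protocol 3, it was higher by 2.70 for Zfp800, 1.46 for Zfp263, 1.45 for Zfp658 and 1.37 for Zfp281, and the difference was -4.49 for Zfp395, -2.40 for Zfp398, -2.19 for Zfp704 and -1.82 for Zfp532. The 2 sets of differences share the Protocol 1 libraries. Age changes together with isolation and culture between these protocols, and their parts cannot be told apart.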

How the results depend on the processing

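Library scaling, a minimum fold change and the membership level each moved counts by over 1.5 times. Scaled by library total, an alternative chosen after seeing the data, the neonatal responses held 15 members higher and 147 lower in Protocol 1A, 12 higher in 1B and 11 higher in 1C. The Control comparison of Protocol 1 with 2 then had 19 lower, that of 1C with 1A had 7 higher and 16 lower, and the differences of responses had 8 higher and 152 lower (Protocol 1 minus 2) and 10 higher and 152 lower (Protocol 1 minus 3). The rise of Zfp143 turned to -0.061 in Protocol 1A and -0.12 in Protocol 1C under this scaling, with no call in either.

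With an absolute log2 fold change of at least 1, Protocol 1A had 10 members higher and 22 lower, 1B had 8 and 30, 1C had 12 and 37, and Protocol 2 had 0 higher. Between Control groups they were 47 and 44 for Protocol 1 against 3, 46 and 50 for Protocol 2 against 3, 1 and 3 for Protocol 1 against 2, and 1 and 0 for both 1B and 1C against 1A. For the differences they were 7 and 23 (Protocol 1 minus 2) and 7 and 24 (Protocol 1 minus 3).

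With membership from 10 CPM, members lower were 54, 65 and 64 in Protocols 1A, 1B and 1C, members higher were 45 for Protocol 1 and 42 for Protocol 2 against 3, and members lower were 61 and 53 for the differences of Protocol 1 minus 2 and minus 3. From 2 CPM these were 140, 155 and 161, then 137 and 136, then 143 and 127, with 2 higher in Protocol 2 and 55 lower for Protocol 1 against 2. Without overlapping and similar members, also chosen after seeing the data, 20 were lower for Protocol 1 against 2 and 16 for 1B against 1A.

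In Protocol 2, DESeq2's Wald test gave 2 higher, no filter gave 2 higher and 2 lower, all 30 libraries in one fit gave 2 higher, and the replicate block gave 4 higher and 5 lower. The block gave 1 lower in Protocol 3 and 1 higher in the difference of Protocol 2 minus 3, and it changed no other count by over 1.5 times. In Protocol 1A, where the numbers were not taken as pairs, each Control library still correlated best with the HMGB1 library of its own number. For 1C against 1A, no filter gave 8 higher and a fit of only the groups compared gave 5. With Protocol 1A alone as Protocol 1, 62 were lower in the difference from Protocol 2.

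Leaving out 1 library gave 27 to 32 higher and 80 to 86 lower in Protocol 1A, 27 to 32 and 89 to 103 in 1B, 28 to 32 and 91 to 104 in 1C, 0 to 1 and 0 in Protocol 2, and 0 and 0 in Protocol 3. Between Control groups it gave 80 to 82 higher and 78 to 81 lower (Protocol 1 against 3), 72 to 78 and 78 to 85 (2 against 3), 49 to 63 and 27 to 35 (1 against 2), 16 to 20 and 18 to 24 (1B against 1A), and 6 to 12 and 2 to 6 (1C against 1A). The differences had 23 to 27 and 88 to 99 (Protocol 1 minus 2), 23 to 29 and 71 to 86 (Protocol 1 minus 3), and 0 to 1 and 0 (Protocol 2 minus 3). The single member of the last count passed without Protocol 3 Control replicate 1.

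Of 151 named values recomputed under the alternatives, giving 2458 values, 2410 kept direction and side of the threshold, 34 lost the call, 12 gained it and 2 reversed. The cause of these changes was not tested. Genes near 5 CPM rest on few reads, reads of 42 overlapping or similar members may be split, and 3 replicates limit small differences.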
